A study of Homo sapiens with 6 samples.

Results

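Once glucose has entered a cell, it can be broken down by glycolysis or led into side routes, and the 43 genes described here encode the enzymes and regulators of these routes. They were chosen by symbol from the routes of intracellular glucose and are 43 of the 31831 genes in the count table. The rule uses gene symbols and no measured value. They cover glycolysis and lactate, the enzymes that set fructose 2,6-bisphosphate, the polyol, hexosamine and pentose phosphate routes, glucose sensing, pyruvate dehydrogenase and its kinases, and the last steps of glucose output. Both groups were HK-2 cells, a long established cell line from the proximal tubule of the human kidney, held at 30 mM glucose for 72 h. The 3 HG-NC libraries came from cells with the control construct and the 3 HG-OE libraries from cells overexpressing hnRNP-F. The labels name a control plasmid, and the methods name lentiviral vectors. High glucose was shared by both groups, so the comparison concerns hnRNP-F overexpression and not glucose itself. Reads counted on HNRNPF may stem from the construct or from the gene in the cell's genome, and the count cannot tell them apart.

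Glycolysis splits glucose into pyruvate and yields ATP and NADH. Under high glucose, part of the sugar can enter the polyol route, in which aldose reductase makes sorbitol, the hexosamine route, which supplies the sugar donor for protein glycosylation, or the pentose phosphate route, which yields NADPH and ribose phosphates. In diabetic kidney disease the polyol and hexosamine routes of tubule cells are classic candidates for glucose damage, and TXNIP is a well known transcript that follows glucose.

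Among the 43 genes, TXNIP and ARRDC4, which restrain glucose uptake, fell to nearly the same degree, 1.97-fold and 1.94-fold. GFPT2, a rare isozyme of the first hexosamine step, rose 3.94-fold, while the prevailing isozyme GFPT1 fell 1.32-fold. PFKFB4 rose 1.90-fold and PFKFB3 fell 1.28-fold. All 3 genes of the polyol and fructose route fell. In the pentose phosphate route, PGLS, TKT and TALDO1 rose and RPIA fell.

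The upstream sequences of 4 genes are shown, since glucose acts on TXNIP and ARRDC4 through MondoA (MLXIP) with its partner MLX, which bind carbohydrate response elements. GFPT1, which fell, and PFKP, which rose, hold the loose pattern found in TXNIP, with other letters at its open positions. Each sequence is the 250 bases before the transcription start in RefSeq (GRCh38.p14), written from 5′ to 3′ along the gene, and capitals mark the motif. In TXNIP (chr1:145996580-145996829, minus strand) and GFPT1 (chr2:69387228-69387477, minus strand) the capitals are a pair of CNCGNG 5 bases apart, from 88 to 72 and from 106 to 90 bases before the start. PFKP (chr10:3068939-3069188, plus strand) holds this pattern in 2 places, from 206 to 190 and from 39 to 23 bases before the start. In ARRDC4 (chr15:97960453-97960702, plus strand) the capitals are CACGTG, from 210 to 205 bases before the start. No pair of CNCGNG at this distance was found in the window of ARRDC4.
TXNIP: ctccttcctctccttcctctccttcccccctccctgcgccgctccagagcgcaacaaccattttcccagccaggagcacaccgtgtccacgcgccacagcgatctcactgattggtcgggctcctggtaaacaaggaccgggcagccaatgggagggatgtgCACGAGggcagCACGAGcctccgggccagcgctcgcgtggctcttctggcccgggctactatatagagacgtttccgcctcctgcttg
ARRDC4: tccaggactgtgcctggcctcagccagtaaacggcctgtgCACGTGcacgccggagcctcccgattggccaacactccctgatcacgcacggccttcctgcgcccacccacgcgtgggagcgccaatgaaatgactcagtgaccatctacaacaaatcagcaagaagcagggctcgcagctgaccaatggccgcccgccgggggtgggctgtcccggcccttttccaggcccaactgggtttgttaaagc
GFPT1: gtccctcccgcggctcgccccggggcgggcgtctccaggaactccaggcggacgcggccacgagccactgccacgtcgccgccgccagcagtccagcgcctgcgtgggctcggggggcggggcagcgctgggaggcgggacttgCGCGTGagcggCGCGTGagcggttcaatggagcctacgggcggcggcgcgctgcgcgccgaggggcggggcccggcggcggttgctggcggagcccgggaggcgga
PFKP: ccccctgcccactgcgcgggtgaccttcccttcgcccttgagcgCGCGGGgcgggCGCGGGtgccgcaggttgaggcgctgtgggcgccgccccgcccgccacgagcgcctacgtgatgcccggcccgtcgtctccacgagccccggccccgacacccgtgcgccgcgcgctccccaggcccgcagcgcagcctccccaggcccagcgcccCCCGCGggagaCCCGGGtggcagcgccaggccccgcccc

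Of the 43 genes, 40 had an upstream sequence in RefSeq. The motifs were searched on both strands of these windows, from 250 bases before the start to 50 bases after it. The pair of CNCGNG 5 bases apart stood in 4 of the 40, which is 10.0%, against 2.69% of all 27305 genes with a window. These 4 were TXNIP and GFPT1, which fell, PFKP, which rose, and PDK2, which did not pass the test. CACGTG stood in 10 of the 40 (25.0%, against 8.78% of all genes) and ACGTG, which is a part of CACGTG, in 21 of the 40 (52.5%, against 24.9%). The 10 genes with CACGTG were ALDOA, ALDOC, ARRDC4, G6PC3, GAPDH, HK2, LDHA, PDHB, PDK2 and PFKFB3. Of these, 4 rose (ALDOC, GAPDH, LDHA and PDHB), 3 fell (ARRDC4, HK2 and PFKFB3) and 3 did not pass the test. The calls of ALDOC and LDHA were lost when some single libraries were left out, as described below. ALDOA is taken here by the counts listed under its symbol alone. A gene counted as holding a motif if any of its windows did, and the 27305 genes had 35116 windows. The 27305 genes were neither limited to those expressed here nor matched for base content. No enrichment in the 40 is read from these shares. These matches describe letters in a window and not a bound site.

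Each library held between 25507595 and 29444841 counted read pairs, and HG-OE replicate 3 stood apart from HG-OE replicates 1 and 2. HNRNPF, the overexpressed gene, had 304, 319 and 311 CPM in HG-NC and 430.5, 452 and 423 CPM in HG-OE. CPM, counts scaled to the size of the library with TMM factors, is the scale of all values by library here, and the 3 values of a group follow the order of replicates 1, 2 and 3. Of 11 proximal tubule markers, only SLC5A2 was over 1 CPM in every library, and SLC22A6 and SLC22A8 were at 0 throughout. The summed level of the list was 4.83 to 7.27 CPM in HG-NC and 5.99, 6.59 and 23.4 CPM in HG-OE. Only HG-OE replicate 3 lay outside the range of HG-NC. All 8 markers of renal epithelium were over 1 CPM in every library (summed 1641 to 1721 CPM in HG-NC and 1801, 1856 and 2362 CPM in HG-OE). Liver markers, summed over 10 genes, were higher in every HG-OE library, at 463, 464 and 740 CPM against 267 to 278 CPM in HG-NC. Of these, 2 were over 1 CPM in every library, AFP and SERPINA1. Squamous markers summed to 71.4 CPM in HG-OE replicate 3 and to 6.42 to 8.88 CPM in the other libraries. Fibroblast, endothelium and blood markers summed to at most 39.7, 1.38 and 2.63 CPM in any library. The part of these differences in the results below was not tested. In bulk RNA, fewer cells of one type and less RNA per cell cannot be told apart.

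All 43 genes passed the filter on low counts and were tested by quasi-likelihood in edgeR, and p-values were adjusted by Benjamini-Hochberg over the 17142 genes tested. Any fold change with an adjusted p under 0.05 counted as called, and 28 of the 43 were called (65.1%), 15 of them higher and 13 lower in HG-OE. Over all genes tested, 51.8% were called, 25.9% higher and 25.9% lower. With at least a 1.2-fold change, 22 of the 43 were called, 11 in each direction, where the background was 39.0%. With a 1.5-fold change the count was 8 of 43 (18.6%) against a background of 15.7%, and with a 2-fold change it was 2, GFPT2 and ALDOC, against 5.82%. The 3 libraries of one group did not overlap with those of the other for 30 of the 43 (69.8%), and for 59.0% of all genes. The exact two-sided permutation test gives p = 0.1 for each of these 30, which no result with 3 libraries a group can go below. The median log2 fold change was 0.067 over the 43 and 0.011 over all genes. Leaving out 1 library moved the 2-fold count to 1 without HG-NC replicate 3 or HG-OE replicate 3, when ALDOC was no longer called, and to 3 without HG-OE replicate 1, when GFPT2, TXNIP and ARRDC4 passed it. Large shares of all genes moved in this comparison, and nothing particular to the 43 is read from these counts. The methods name biological replicates and parallel wells, and the p-values measure the spread between these libraries only.

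**Figure D1:**
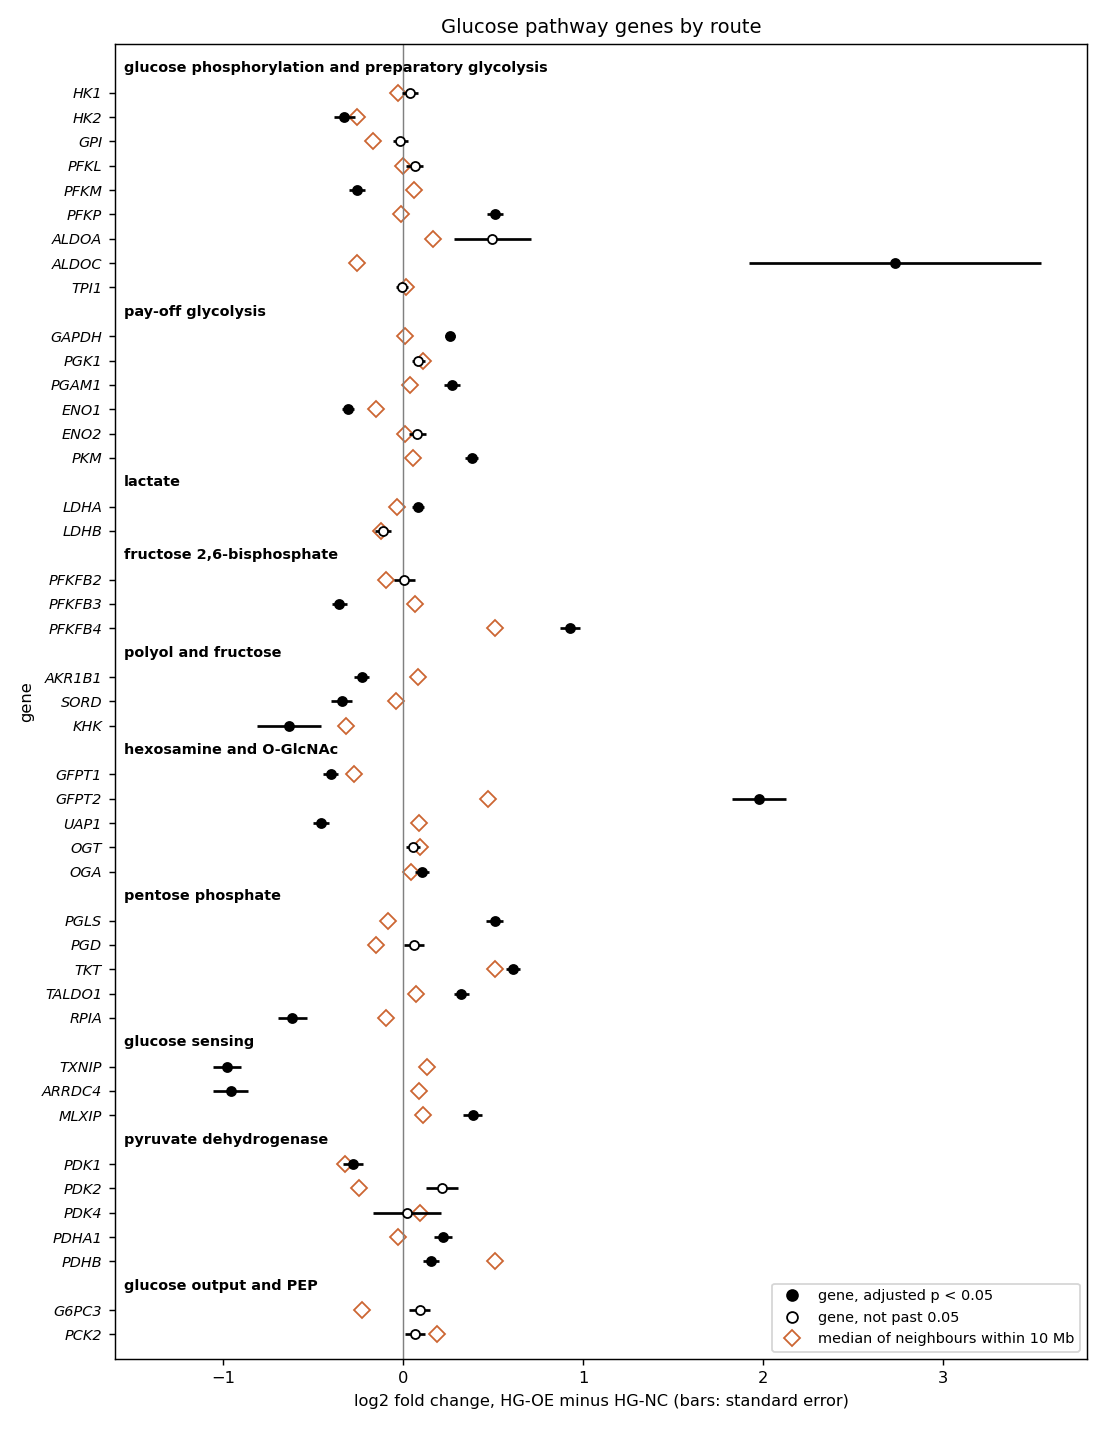
Log2 fold change of HG-OE over HG-NC for each of the 43 genes (horizontal axis), grouped by route, with bars for the standard error. Filled circles passed an adjusted p of 0.05, open circles did not, and diamonds give the median of each gene's neighbours within 10 Mb. TXNIP and ARRDC4 lie near -1 with neighbours above 0, and ALDOC has the widest error, 0.811.

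The 43 transcripts differed widely in abundance per length. On the scale of FPKM, the fragments per gene length and library size that the authors computed from the counts, AKR1B1, aldose reductase, was the highest of them in HG-NC and GAPDH the highest in HG-OE. AKR1B1 had 2057 ± 26.1 FPKM in HG-NC and 1736 ± 113 FPKM in HG-OE (mean ± SD, n = 3), and among 31643 genes it ranked 15th in HG-NC and 17th in HG-OE. GAPDH had 1867 ± 26.6 FPKM in HG-NC and 2217 ± 36.0 FPKM in HG-OE. ENO1 followed with 691 ± 7.2 FPKM in HG-NC and 553 ± 15.1 FPKM in HG-OE. Levels under 1 FPKM in HG-NC were found for PDK4, ALDOA, GFPT2 and ALDOC. The value of ALDOA leaves out ENSG00000285043, a gene that shares its exons and held far more counts, as described below. Together the 43 genes took 2.08% to 2.26% of all FPKM in a library.

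**Figure D2:**
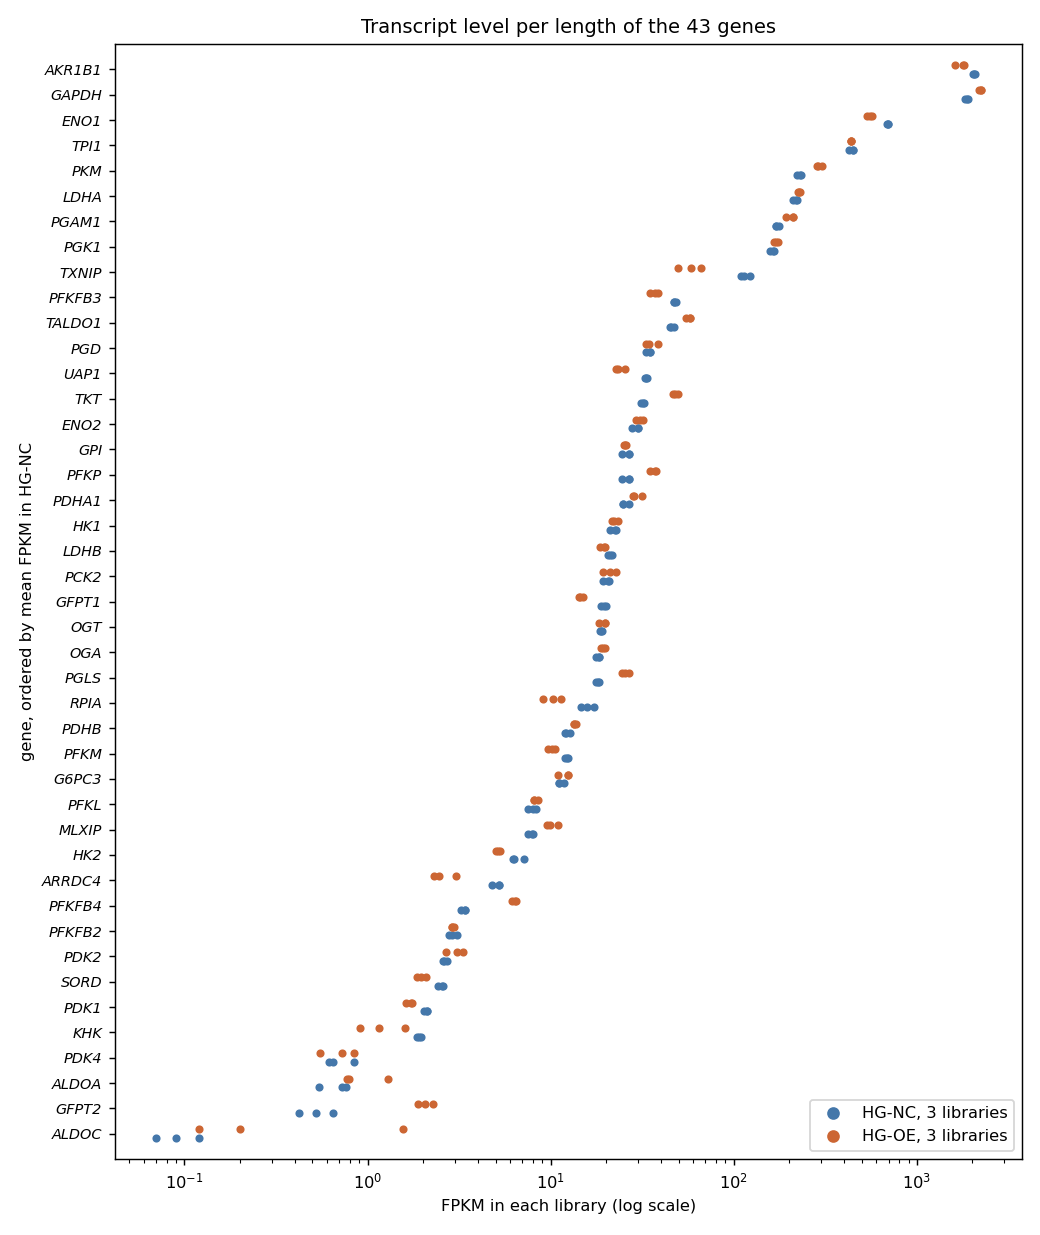
FPKM of each of the 43 genes in each of the 6 libraries (horizontal axis, log scale), ordered by the mean in HG-NC. ALDOA and LDHB are shown by the counts listed under these symbols only. Levels run from 0.0933 FPKM for ALDOC to 2057 FPKM for AKR1B1 in HG-NC, and the HG-OE points of ALDOC spread further than those of any other gene shown.

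In the glucose sensing group, both arrestin domain genes fell and the sensor itself rose. TXNIP (ENSG00000265972.6, chr1:145992435-145996579) encodes thioredoxin-interacting protein, which binds thioredoxin and promotes removal of glucose transporters from the cell surface. Positions here are on GRCh38 and come from GENCODE release 44. TXNIP had 493, 442 and 457 CPM in HG-NC and 268, 239 and 201 CPM in HG-OE. The lowest HG-NC library lay far above the highest HG-OE library, and HG-OE replicate 3 was the lowest of all. The change was 1.97-fold downward (log2 fold change -0.98, SE 0.0781, adjusted p = 2.77e-07). ARRDC4 (ENSG00000140450.9, chr15:97960703-97973833), its paralog with a like role in glucose uptake, had 23.9, 23.8 and 21.7 CPM in HG-NC and 13.8, 11.3 and 10.6 CPM in HG-OE. Again every HG-OE library was below every HG-NC library (log2 fold change -0.96, SE 0.0964, adjusted p = 2.29e-06). With each library left out in turn, TXNIP stayed between -1.08 and -0.87 and ARRDC4 between -1.08 and -0.88 on the log2 scale. MLXIP encodes MondoA, the transcription factor that senses glucose 6-phosphate and drives TXNIP and ARRDC4. It had 125, 123 and 116 CPM in HG-NC and 154, 173 and 149 CPM in HG-OE. The groups did not overlap, and MLXIP rose 1.31-fold (log2 fold change 0.39, SE 0.0539, adjusted p = 4.3e-05). Its partner MLX, which is not one of the 43, fell (log2 fold change -0.36, adjusted p = 0.000157). Among the other arrestin domain genes, ARRDC2 (log2 fold change -0.32, adjusted p = 0.00142) and ARRDC3 (-0.38, adjusted p = 6.05e-06) also fell, by less than TXNIP and ARRDC4, and ARRDC1 did not pass the test (0.11, adjusted p = 0.196). MLX, ARRDC1, ARRDC2 and ARRDC3 are named here after their values were seen.

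**Figure D3:**
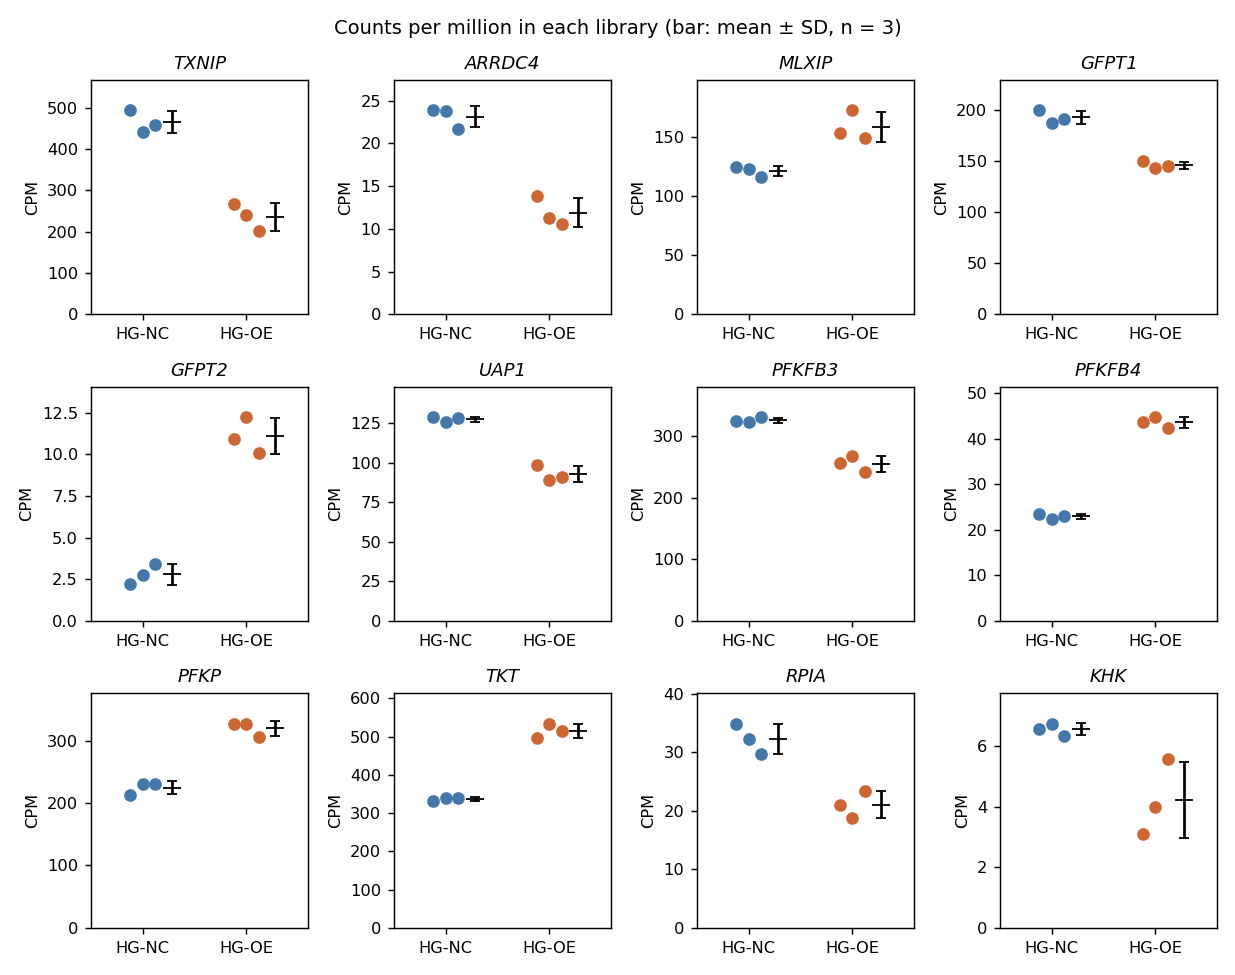
CPM of 12 of the genes in each library, on vertical axes that start at 0, with the mean and SD of each group (n = 3) as a bar beside the points. The 12 genes were picked from those called. In all 12 panels the HG-NC and HG-OE points are separate, as they are for 59.0% of all genes. In KHK the HG-OE points run from 3.10 to 5.57 CPM.

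The hexosamine route held the largest well supported rise among the 43 genes. GFPT1 and GFPT2 encode both isozymes of glutamine fructose-6-phosphate transaminase (GFAT), which opens the route. GFPT2 had 2.2, 2.77 and 3.43 CPM in HG-NC and 10.9, 12.2 and 10.1 CPM in HG-OE. All HG-OE libraries were high and no HG-NC library came near them, and the change was 3.94-fold (log2 fold change 1.98, SE 0.151, adjusted p = 1.8e-07). On the log2(FPKM + 1) scale, which shrinks the change of a low gene, limma gave 1.01 (adjusted p = 0.000139). GFPT1 had 199.7, 187 and 192 CPM in HG-NC and 149.6, 143 and 145 CPM in HG-OE. Here all HG-OE libraries were low, with a 1.32-fold fall (log2 fold change -0.40, SE 0.0402, adjusted p = 2.09e-06). UAP1 encodes the enzyme that completes UDP-GlcNAc, the end product. It had 129, 126 and 128 CPM in HG-NC and 98.7, 89.2 and 90.8 CPM in HG-OE. The groups were again separate, and UAP1 fell 1.37-fold (log2 fold change -0.45, SE 0.0450, adjusted p = 1.94e-06). OGT, the transferase that places O-GlcNAc on proteins, did not pass the test (log2 fold change 0.05, SE 0.0407, adjusted p = 0.279, 95% interval -0.02 to 0.13). OGA, the hydrolase that removes it, passed narrowly, with 144 to 150 CPM in HG-NC and 154 to 162 CPM in HG-OE (log2 fold change 0.10, SE 0.0392, adjusted p = 0.0378). Its call was lost without HG-NC replicate 2 or 3 (adjusted p = 0.0584 and 0.140) and without HG-OE replicate 1 or 2 (0.12 and 0.0915), without the low-count filter (0.139) and with limma on FPKM (0.0804 to 0.0912).

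Per length, GFPT1 remained the main GFAT transcript. Its share of the FPKM of both isozymes was 98.0%, 97.3% and 96.8% in HG-NC and 88.0%, 86.2% and 88.4% in HG-OE. The share of GFPT2 went from 2.65% ± 0.595 to 12.5% ± 1.18 (mean ± SD, n = 3). Computed from CPM, the share of GFPT1 fell by 5.63 percentage points in place of 9.81. These shares are descriptions and carry no test.

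The genes of fructose 2,6-bisphosphate, the strongest activator of phosphofructokinase, moved apart. PFKFB3, whose enzyme mainly makes this activator, had 323, 322 and 330.1 CPM in HG-NC and 256, 267 and 241 CPM in HG-OE. Every HG-OE library was lower (log2 fold change -0.35, SE 0.0422, adjusted p = 1.08e-05), a 1.28-fold fall. PFKFB4 had 23.4, 22.3 and 23.1 CPM in HG-NC and 43.7, 44.7 and 42.4 CPM in HG-OE. It rose 1.90-fold with little spread in either group (log2 fold change 0.93, SE 0.0540, adjusted p = 1.63e-08). PFKFB4 shares 298 of 6107 exonic bases with UCN2 on the same strand, which held a mean of 130 counts against 943 for PFKFB4. PFKFB2 lay between 31.6 and 35.1 CPM in all 6 libraries, and its groups overlapped (log2 fold change 0.01, SE 0.0558, adjusted p = 0.91, 95% interval -0.10 to 0.12). Of the summed FPKM of the 3 genes, PFKFB3 held 88.3% ± 0.295 in HG-NC and 80.0% ± 0.525 in HG-OE, and PFKFB4 held 6.24% ± 0.149 and 13.7% ± 0.258. The summed FPKM itself was 53.5 to 54.7 in HG-NC and 43.9 to 47.8 in HG-OE.

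In the preparatory part of glycolysis, 4 of 9 genes were called, PFKP and ALDOC higher and HK2 and PFKM lower. The gene HK2 encodes hexokinase 2, which traps glucose as glucose 6-phosphate. It had 41.6, 41.4 and 46.9 CPM in HG-NC and 34.3, 34.0 and 35.4 CPM in HG-OE. HG-OE libraries were the lower ones without overlap (log2 fold change -0.33, SE 0.0593, adjusted p = 0.000415). HK1, hexokinase 1, lay at 149 to 160 CPM in HG-NC and 154 to 167 CPM in HG-OE and did not pass the test (log2 fold change 0.04, SE 0.0446, adjusted p = 0.5). HKDC1, a further hexokinase outside the 43 genes, was the highest per length, at 25.0 ± 0.720 FPKM in HG-NC and 27.1 ± 1.45 FPKM in HG-OE, and rose slightly (log2 fold change 0.13, SE 0.0464, adjusted p = 0.0324). Of the summed FPKM of all 4 listed hexokinases, HKDC1 held 46.7% ± 0.521 in HG-NC and 49.5% ± 0.826 in HG-OE, HK1 41.1% ± 0.390 and 41.0% ± 0.502, and HK2 12.2% ± 0.785 and 9.48% ± 0.602. Phosphofructokinase commits the sugar to glycolysis, and its platelet isozyme PFKP had 213, 230.5 and 231 CPM in HG-NC and 326, 327 and 306 CPM in HG-OE. PFKP rose 1.42-fold and its groups were well apart (log2 fold change 0.51, SE 0.0439, adjusted p = 5.43e-07). The muscle isozyme PFKM fell from 99.0 ± 1.73 to 83.0 ± 3.54 CPM (log2 fold change -0.25, SE 0.0437, adjusted p = 0.000259), and the liver isozyme PFKL did not pass the test (log2 fold change 0.07, SE 0.0471, adjusted p = 0.258). Of their summed FPKM, PFKP held 56.3% ± 0.507 in HG-NC and 66.6% ± 0.190 in HG-OE, PFKM 26.5% ± 0.598 and 18.4% ± 0.365, and PFKL 17.2% ± 0.265 and 15.0% ± 0.413. GPI (-0.01, adjusted p = 0.795) and TPI1 (-0.00, adjusted p = 0.948), the isomerases of hexose and triose phosphates, had log2 fold changes near 0, with 95% intervals of -0.10 to 0.07 and -0.07 to 0.06.

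**Figure D4:**
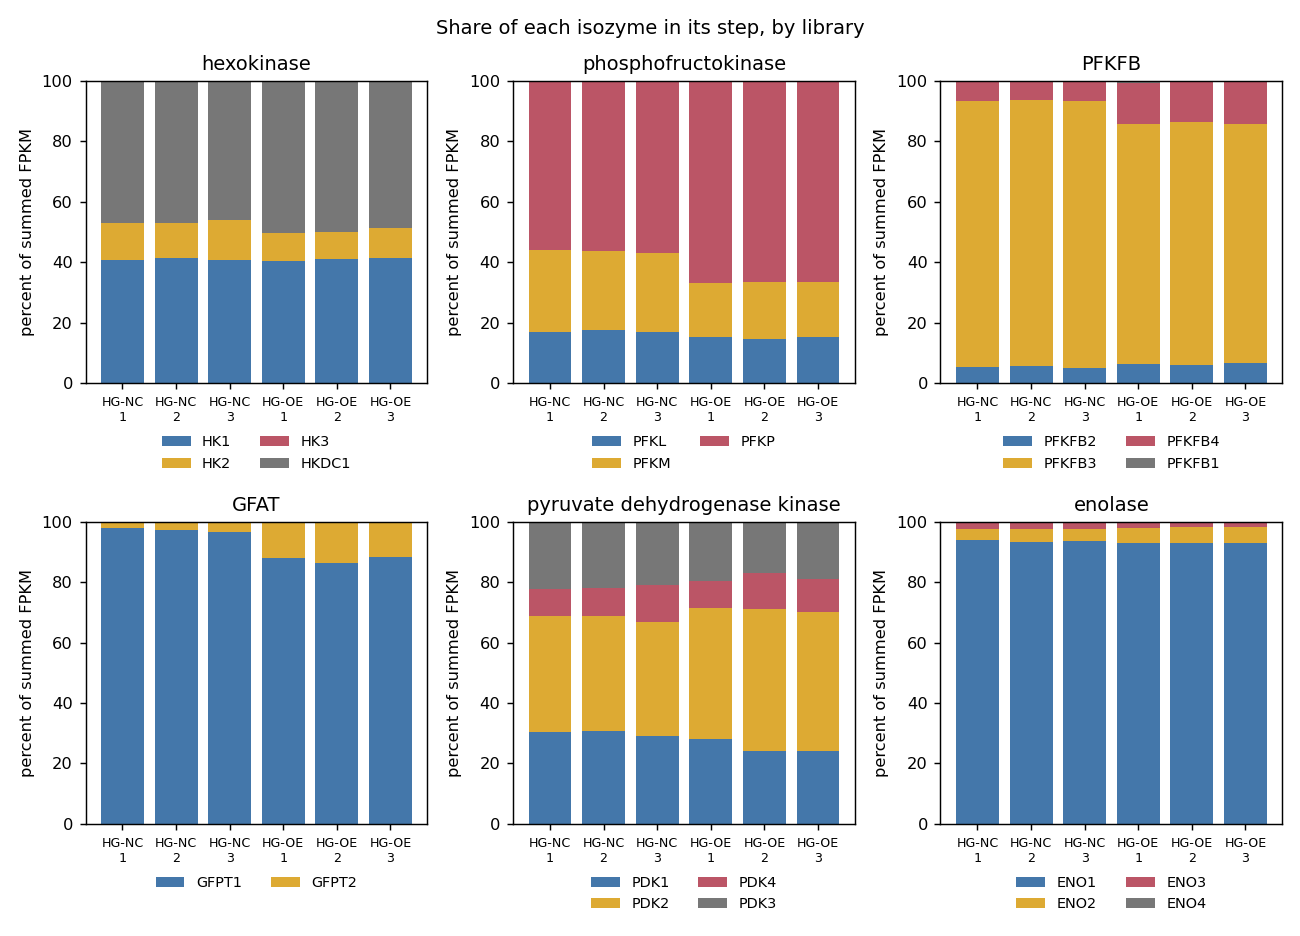
Share of each isozyme in the summed FPKM of its step (vertical axis, percent) for 6 steps, with 1 stacked bar per library and isozymes outside the 43 (HK3, HKDC1, ENO3, ENO4, PFKFB1 and PDK3) included. PFKP rises from 56.3% to 66.6% of phosphofructokinase, PFKFB4 from 6.23% to 13.7% of its step and GFPT2 from 2.65% to 12.5% of GFAT in the group means.

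The aldolases need a closer look at the counts. ALDOC, the brain aldolase, had 9, 7 and 6 counts in HG-NC and 17, 10 and 135 counts in HG-OE, so that 1 library carried the change. On the CPM scale these were 0.354, 0.259 and 0.215 CPM in HG-NC and 0.586, 0.343 and 4.61 CPM in HG-OE, and the groups overlapped. The test gave a log2 fold change of 2.73 (SE 0.811, adjusted p = 0.0119), but without HG-OE replicate 3 or HG-OE replicate 1 the gene did not pass the filter on low counts. Without HG-NC replicate 2 or 3 the adjusted p was 0.0590 and 0.0575, and with limma on FPKM it was 0.184 to 0.412. ALDOA, the aldolase of most tissues, was listed with only 59 to 163 counts. A gene on the same strand, ENSG00000285043, shares 1639 of its 3829 exonic bases and held 33498 to 46810 counts. ALDOA alone did not pass the test (log2 fold change 0.50, SE 0.215, adjusted p = 0.0678). Without HG-OE replicate 1 or 2, ALDOA alone was called (adjusted p = 0.0428 and 0.0403). With both counts added, an alternative chosen after the counts were seen, the locus had 1320 to 1341 CPM in HG-NC and 1545 to 1611 CPM in HG-OE and rose (log2 fold change 0.24, SE 0.0321, adjusted p = 3.12e-05).

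In the pay-off part of glycolysis, GAPDH, PGAM1 and PKM rose, ENO1 fell, and PGK1 and ENO2 did not pass the test. GAPDH, which also serves as a reference gene in many qPCR assays, had 4939, 5019.9 and 5045 CPM in HG-NC and 6001, 6114 and 5894 CPM in HG-OE. All HG-OE libraries were higher, by 1.2-fold (log2 fold change 0.26, SE 0.0281, adjusted p = 3.87e-06). PKM, pyruvate kinase, had 2115, 2194 and 2209 CPM in HG-NC and 2759, 2969 and 2761 CPM in HG-OE. It rose 1.30-fold without overlap (log2 fold change 0.38, SE 0.0361, adjusted p = 1.32e-06). A count per gene does not separate its M1 and M2 splice forms. PGAM1, phosphoglycerate mutase, had 500.0, 482 and 482 CPM in HG-NC and 551, 609.9 and 608 CPM in HG-OE. Each HG-OE library exceeded each HG-NC library (log2 fold change 0.27, SE 0.0432, adjusted p = 0.000133). ENO1, the main enolase, had 4048, 3988 and 4047 CPM in HG-NC and 3253, 3362 and 3165 CPM in HG-OE. It was the one gene of this part that fell, by 1.24-fold and in every HG-OE library (log2 fold change -0.31, SE 0.0310, adjusted p = 2.5e-06). PGK1 was at 959 to 1009 CPM in HG-NC and 1022 to 1065 CPM in HG-OE, and missed the threshold (log2 fold change 0.09, SE 0.0347, adjusted p = 0.0542). It was called with the DESeq2 Wald test (adjusted p = 0.0378) and with at least 10 counts in every library (0.0380). ENO2, the neuronal enolase, overlapped between groups (log2 fold change 0.08, SE 0.0462, adjusted p = 0.164). Of the summed FPKM of the 4 listed enolases, ENO1 held 93.6% ± 0.288 in HG-NC and 93.0% ± 0.106 in HG-OE, ENO2 3.97% ± 0.188 and 5.14% ± 0.0691, and ENO3, which is not one of the 43, 2.39% ± 0.126 and 1.88% ± 0.0652. Up to 29 pseudogenes per gene were listed beside 12 of the 43 genes, GAPDH having the most. Their counts came to at most 0.169% of the counts of the gene they resemble.

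The lactate step moved little. LDHA, the lactate dehydrogenase that favours lactate, had 1428 to 1500 CPM in HG-NC and 1539 to 1567 CPM in HG-OE. It passed the test by a small margin (log2 fold change 0.08, SE 0.0325, adjusted p = 0.0492). The call was lost without HG-NC replicate 2 or 3 (adjusted p = 0.201 and 0.129) and without HG-OE replicate 1 or 2 (0.102 and 0.10). It was also lost with DESeq2's size factors (0.0534), without the low-count filter (0.363) and with limma on FPKM (0.112 to 0.188). LDHB missed the threshold (log2 fold change -0.11, SE 0.0445, adjusted p = 0.0501), and it shares 997 of 2983 exonic bases with ENSG00000285854 on the same strand, which held 25745 to 26900 counts against 1788 to 2017 for LDHB. Summed in the same way as for ALDOA, this locus fell (log2 fold change -0.10, SE 0.0354, adjusted p = 0.0234). LDHB alone was called without the low-count filter (adjusted p = 0.044) and with limma on FPKM (0.0348 to 0.0488). The FPKM values of ALDOA and LDHB cover only the counts listed under these symbols.

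Of the polyol and fructose route, all 3 genes fell. AKR1B1, aldose reductase, turns glucose into sorbitol. It had 8399, 8326 and 8484 CPM in HG-NC and 7373, 7497 and 6630.4 CPM in HG-OE. HG-OE replicate 3 was the lowest and no HG-OE library reached an HG-NC library (log2 fold change -0.23, SE 0.0396, adjusted p = 0.000266). SORD, sorbitol dehydrogenase, turns sorbitol into fructose and had 35.8, 35.7 and 33.6 CPM in HG-NC and 26.1, 27.8 and 29.2 CPM in HG-OE. It fell 1.27-fold (log2 fold change -0.34, SE 0.0600, adjusted p = 0.000315), with separate groups. KHK, ketohexokinase, phosphorylates fructose and had 6.57, 6.72 and 6.33 CPM in HG-NC and 3.10, 3.98 and 5.57 CPM in HG-OE. The HG-OE libraries spread widely, with replicate 3 nearest to HG-NC, and the fall was 1.55-fold (log2 fold change -0.63, SE 0.176, adjusted p = 0.0083). KHK shares 719 of 3025 exonic bases with CGREF1 on the other strand. The libraries were directional, and whether the counting used strand is not given in the sources used here. With limma on log2(FPKM + 1) and no filter on low values, AKR1B1 (adjusted p = 0.0635) and KHK (0.0593, log2 fold change -0.41) missed the threshold. The summed FPKM of the 3 genes, nearly all of it from AKR1B1, was 2039.7 to 2090.5 in HG-NC and 1609 to 1808 in HG-OE.

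In the pentose phosphate route, 3 genes rose, RPIA fell and PGD did not pass the test. PGLS, the lactonase of the oxidative branch, had 56.6, 58.6 and 57.3 CPM in HG-NC and 80.9, 86.1 and 78.5 CPM in HG-OE. It rose 1.42-fold, with all HG-OE libraries above HG-NC (log2 fold change 0.51, SE 0.0473, adjusted p = 1.09e-06). TKT, transketolase, moves carbon between pentoses and glycolytic sugars and had 331, 340.0 and 341 CPM in HG-NC and 497, 533 and 515 CPM in HG-OE. Its rise was 1.53-fold (log2 fold change 0.61, SE 0.0379, adjusted p = 2.79e-08). TALDO1, transaldolase, works beside it and had 149, 145 and 152 CPM in HG-NC and 179, 189.8 and 189 CPM in HG-OE. It rose 1.25-fold without overlap (log2 fold change 0.32, SE 0.0400, adjusted p = 1.45e-05). RPIA makes ribose 5-phosphate from ribulose 5-phosphate, and it had 34.8, 32.2 and 29.7 CPM in HG-NC and 21.0, 18.8 and 23.4 CPM in HG-OE. The HG-OE libraries were all lower, and the fall was 1.53-fold (log2 fold change -0.61, SE 0.0828, adjusted p = 3.25e-05). PGD, the second NADPH-forming enzyme, lay at 124 to 131 CPM in HG-NC and 124 to 146 CPM in HG-OE, with overlapping groups (log2 fold change 0.06, SE 0.0538, adjusted p = 0.357). Left without HG-OE replicate 3, PGD stood at -0.0048 on the log2 scale. The summed FPKM of the 5 genes was 145 to 147 in HG-NC and 170.3 to 179.9 in HG-OE.

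At the entry to the mitochondrion, pyruvate dehydrogenase turns pyruvate into acetyl-CoA, and its kinases switch it off. PDHA1 and PDHB, both of its E1 subunits, rose by small steps. PDHA1 had 125 to 135 CPM in HG-NC and 143 to 160.2 CPM in HG-OE (log2 fold change 0.22, SE 0.0502, adjusted p = 0.00196), and PDHB had 62.9 to 67.3 CPM and 71.5 to 73.0 CPM (log2 fold change 0.16, SE 0.0446, adjusted p = 0.00907). The kinase PDK1 had 35.3, 34.8 and 33.7 CPM in HG-NC and 29.2, 29.1 and 27.3 CPM in HG-OE. Its groups were separate and it fell 1.21-fold (log2 fold change -0.28, SE 0.0554, adjusted p = 0.000792). PDK2 missed the threshold (log2 fold change 0.22, SE 0.0876, adjusted p = 0.0531), with 2113 of its 5471 exonic bases shared with SAMD14 on the other strand. PDK4 lay at 2.79 to 4.36 CPM in all libraries, and its 95% interval was wide (log2 fold change 0.02, SE 0.188, adjusted p = 0.93, -0.35 to 0.39). PDK3, the remaining kinase and not one of the 43, fell (log2 fold change -0.27, SE 0.0663, adjusted p = 0.00395). Of the summed FPKM of all 4 kinases, PDK2 held 38.1% ± 0.462 in HG-NC and 45.4% ± 1.91 in HG-OE, PDK1 30.1% ± 0.780 and 25.53% ± 2.26, and PDK3 21.7% ± 0.618 and 18.6% ± 1.43. HKDC1 and PDK3 are named after their values were seen, as the isozymes missing from their steps.

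Neither gene of the last group passed the test. G6PC3, the widely expressed glucose 6-phosphatase, had 56.0 to 60.1 CPM in HG-NC and 56.1 to 64.7 CPM in HG-OE (log2 fold change 0.09, SE 0.0582, adjusted p = 0.197). PCK2, the mitochondrial enzyme that makes phosphoenolpyruvate, had 90.2 to 97.3 CPM and 90.8 to 106 CPM (log2 fold change 0.07, SE 0.0554, adjusted p = 0.333). Without HG-OE replicate 3, both passed it (G6PC3 0.15, adjusted p = 0.0101, and PCK2 0.13, adjusted p = 0.0183), as did PGK1 (0.10, adjusted p = 0.00727), ENO2 (0.11, adjusted p = 0.0226), LDHB (-0.12, adjusted p = 0.0417), OGT (0.09, adjusted p = 0.0427) and PDK2 (0.21, adjusted p = 0.0439). Without that library 20 of the genes were called higher and 14 lower, where 53.9% of all genes tested were called.

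Position in the genome went with direction for some of the genes. The 5 genes on chromosome 2 (HK2, GFPT1, KHK, RPIA and PDK1) all fell, and chromosome 2 had the lowest median of all chromosomes, -0.25 on the log2 scale over 1137 genes, 50.04% of which were called lower. The 3 genes on chromosome 3 (TKT, PFKFB4 and PDHB) all rose, on a chromosome with a median of 0.13 over 936 genes, of which 38.0% were called higher and 23.9% lower. Neighbours were the other genes within 10 Mb with a mean of at least 100 counts. Their medians, over windows that overlap one another, were 0.51, 0.51 and 0.51 around the 3 genes of chromosome 3. Less the median of their neighbours, TKT stood at 0.10, PFKFB4 at 0.42 and PDHB at -0.35, which turns the direction of PDHB. On chromosome 2, HK2 stood at -0.07, GFPT1 at -0.13, KHK at -0.31 and RPIA at -0.52, while PDK1 turned to 0.04. ENO1, on chromosome 1, went to -0.16. GFPT2, on chromosome 5 among neighbours with a median of 0.47, still stood at 1.5. TXNIP (-1.11), ARRDC4 (-1.04), UAP1 (-0.54), PFKFB3 (-0.42), PFKP (0.52) and PGLS (0.59) stood as far from their neighbours as from 0, or further. The part of the regional shifts in these changes was not tested.

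**Figure D5:**
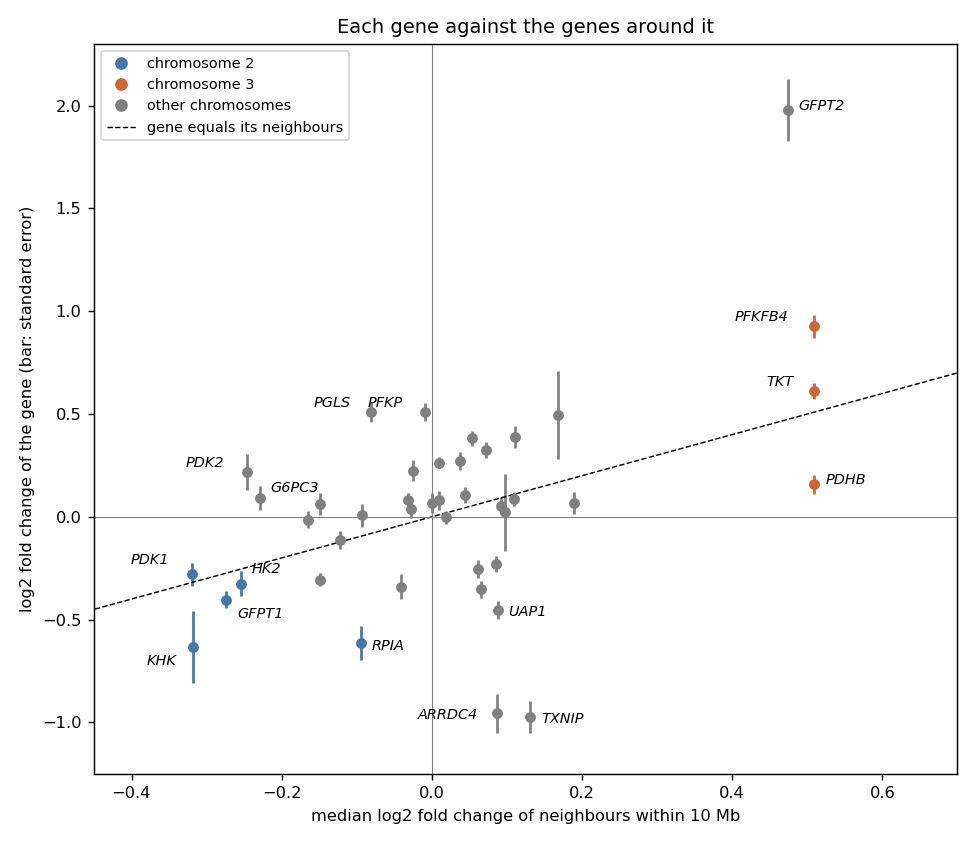
Log2 fold change of each gene (vertical axis, bar for the standard error) against the median of its neighbours within 10 Mb (horizontal axis), for all of the 43 but ALDOC. Points on the dashed line change as their neighbours do. TKT and PDK1 lie close to it, and TXNIP, ARRDC4 and GFPT2 lie 1.11, 1.04 and 1.5 away.

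Other genes of the same pathways give the setting. Of 72 such genes, 68 were listed in the count table and 50 were tested. Of the 50, 14 rose and 17 fell (62.0% called, against 51.8% of all genes). With at least a 1.5-fold change, 4 were called (8.0%, against 15.7% of all genes). The 10 with the largest changes among those called (mean count 100 or more) spread over the routes, and their log2 fold changes follow. SLC37A4, the glucose 6-phosphate carrier of the endoplasmic reticulum, rose most (0.71, adjusted p = 4.2e-06), from 12.1, 13 and 13.1 to 20.4, 20.1 and 22.0 CPM. The others that rose were GLYCTK (0.64), which handles glycerate from fructose, AKR1A1 (0.57), an aldehyde reductase related to AKR1B1, and GNPDA1 (0.45), a deaminase that returns glucosamine 6-phosphate to glycolysis. Less the median of their neighbours, SLC37A4 stood at 0.72 and AKR1A1 at 0.49. GLYCTK, on chromosome 3, then stood at 0.13 and GNPDA1, on chromosome 5, at 0.12. ENO3, the muscle enolase, fell most (-0.64, adjusted p = 2.57e-07), from 82.2, 89.2 and 82.5 to 56.4, 54.9 and 51.6 CPM. RBKS, ribokinase (-0.61), and RPE, the epimerase beside RPIA (-0.52), both on chromosome 2, also fell. So did GNPDA2 (-0.53), the paralog of GNPDA1, MPC2 (-0.48), a subunit of the mitochondrial pyruvate carrier, and SLC16A1 (-0.47), the lactate transporter MCT1.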

How the data were processed

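RNA-seq libraries of poly(A) RNA from HK-2 cells in high glucose were compared, 3 HG-OE against 3 HG-NC. After trimming, the authors aligned reads to GRCh38 by HISAT2 (per the labels and the methods) and deposited whole-number counts per gene, taken from uniquely mapped pairs and not normalized. The authors also deposited FPKM values computed from these counts. The annotation release and the counting by strand are not given in the sources used here. The methods name ComBat_seq, and whether it entered these counts is not stated. Where genes overlap on 1 strand, as ALDOA, LDHB and PFKFB4 do among others, the counting decides which of them receives the pairs. GAPDH, PDHA1 and G6PC3, among others, share exonic bases with genes on the other strand.

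The count test used edgeR 4.0.16 in R 4.3.3 (TMM, default low-count filter, quasi-likelihood test), which kept 17142 of 31831 genes and gave the standard errors, 95% intervals and Benjamini-Hochberg adjusted p-values. The biological coefficient of variation was 0.0683. CPM were computed with TMM factors of 0.997 to 1.00 on totals of 25507595 to 29444841 counts. Single genes were also tested by exact two-sided permutation. Alternatives used DESeq2 1.42.0, limma 3.58.1 on log2(FPKM + 1) or log2(FPKM + 0.1), where genes needed a mean of 0.1 FPKM or, for the first, none, no filter, 10 counts in every library, a fold of 1.2 (glmTreat), the replicate number as a block, single libraries left out, and removal of the median of neighbours within 10 Mb (at least 100 counts, 5 or more genes). Removal of the neighbours' median changed the fold change and left the p-value of the unshifted change in place. The steps were tested on simulated data. Positions come from GENCODE release 44, and upstream sequences from RefSeq.

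All 43 genes are named. Values by library are given for those called with at least a 1.2-fold change and for the 3 with the highest FPKM, and of the other pathway genes the 10 called with the largest change and a mean of at least 100 counts are named. The genes and lists were chosen with earlier results of these data known.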

Additional observations from a re-analysis of the deposited data

How the results depend on the processing

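Of the 43 log2 fold changes, most kept their direction and their side of the threshold in each alternative. The counts of genes called moved by more than 1.5 times in these cases. With glmTreat against a fold of 1.2, 8 were called higher and 7 lower, where 24.3% of all genes tested were called. At a 1.5-fold change, 5 were called with limma on log2(FPKM + 1), with or without the filter. Removal of the median of neighbours shifted the fold change only, and the shifted value was not tested. By the adjusted p of the unshifted change, 5 of the called genes then stood at a 1.5-fold change or more. At a 2-fold change, 1 was called with at least 10 counts in every library and with each limma setting. With the median of neighbours removed, 4 of the called genes stood at a 2-fold change or more, again by the unshifted adjusted p. With single libraries left out, the ranges were 12 to 20 called higher, 13 to 14 lower, 7 to 8 at 1.5-fold, 1 to 3 at 2-fold and 28 to 37 of the other pathway genes.

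Direction turned in some alternatives. With single libraries left out, GPI ranged from -0.050 to 0.011, TPI1 from -0.024 to 0.012, PDK4 from -0.129 to 0.179, PFKFB2 from -0.024 to 0.050 and PGD from -0.0048 to 0.11. TPI1 turned to 0.0045 with at least 10 counts in every library, PDK4 to -0.000445 with limma on log2(FPKM + 0.1), and PFKFB2 to -0.0064 without the low-count filter, -0.0043 with limma on log2(FPKM + 1), filtered or not, and -0.0053 on log2(FPKM + 0.1). With the median of neighbours removed, directions also turned for genes further from 0, PDK1 and PDHB among them, which were called without it. GPI stood at 0.15, LDHB at 0.011, OGT at -0.037, PCK2 at -0.12, PDHB at -0.35, PDK1 at 0.039, PDK4 at -0.075 and PGK1 at -0.024. Apart from the construction of the alternatives, the cause of these turns was not tested. ALDOC has no value without HG-OE replicate 1, without HG-OE replicate 3 or with at least 10 counts in every library, since the filter removed it.

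The replicate numbers did not pair the libraries. The correlation of the deviations of same-numbered HG-NC and HG-OE libraries was -0.027, 0.030 and -0.001, and with the replicate block 8849 genes were called in place of 8887, with 15 of the 43 higher and 13 lower as before. Under the block, LDHA was not called (adjusted p = 0.0725) and ALDOA was (0.0403). Depth limits the rarest of the 43, ALDOC, GFPT2, PDK4 and KHK, most. The counts listed under ALDOA are set by how pairs in shared exons were assigned.

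The difference in share of FPKM (HG-OE less HG-NC, in percentage points) was 4.12 for HK1 against HK2 alone and -0.12 with HKDC1 and HK3 added, and -1.18 and -0.67 for ENO1 without and with ENO3 and ENO4, sums chosen after the values were seen. Computed from CPM it was 0.552 for LDHA (1.03 from FPKM), 1.38 for PFKFB2 (0.896) and -5.63 for GFPT1 (-9.81). The shares of LDHA rest on the counts listed under LDHB, without those of ENSG00000285854, which shares its exons.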
